A study of Mus musculus with 5 samples.

Results

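The 41 genes described here belong to cholesterol and fatty acid metabolism and were picked by gene symbol from the 30046 features of a deposited count table, 22 of them for sterols and 19 for fatty acids and triglycerides. All 41 were found in the table, and 40 of them were among the 10088 genes that passed a filter on low counts and were tested. The name of synthesis genes covers most but not all of them, since the list also holds 5 regulators of sterol-responsive transcription, 1 sterol carrier and 3 lipases that break down stored triglyceride.

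Bulk RNA-seq was performed on tdTomato+ cells with high Cxcl12-GFP from P21 femurs without their distal growth plates, to compare marrow stromal cells that descend from fetal cells marked by different creER drivers. Dlx5CE-E12.5 cells (3 libraries) came from mice that carried Dlx5(CreER/+), Cxcl12(GFP/+) and R26R(tdTomato/+), and Fgfr3CE-E12.5 cells (2 libraries, numbered 2 and 3) from mice that carried Fgfr3-iCreER, Cxcl12(GFP/+) and R26R(tdTomato/+). All mice shared the GFP knock-in at 1 Cxcl12 allele, the tdTomato reporter at R26R and a single tamoxifen dose at E12.5. The tdTomato label thus marked descendants of cells in which the driver was active at or soon after the pulse. Dlx5-creER was used for cells of the perichondrium and Fgfr3-iCreER for chondrocytes, and tdTomato reports past driver activity. The paper names as a potential limit that further recombination may take place in the days after the injection. Cells of littermates were pooled, so the spread between libraries is that between pools and may be partly technical. According to the study's methods, Dlx5CE-E12.5 libraries were read as long paired-end reads on a NovaSeq and Fgfr3CE-E12.5 libraries as short single-end reads on a HiSeq, while the sample labels name a HiSeq throughout. Lineage, instrument and read length therefore cannot be told apart. Total counts were 32563758, 22035650 and 27135553 in Dlx5CE-E12.5 replicates 1, 2 and 3, and 56355203 and 58166285 in Fgfr3CE-E12.5 replicates 2 and 3. A count of 3, taken as the detection floor, corresponded to 0.0516 to 0.136 CPM and covers counting error only.

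The labels call both groups CAR cells, Cxcl12-abundant reticular cells of the marrow stroma, and all 10 markers of these cells were detected in every library. Their summed level was 38231, 36878 and 35528 CPM in the Dlx5CE-E12.5 libraries and 16196 and 9677 CPM in the Fgfr3CE-E12.5 libraries, with Cxcl12 the most abundant in both. Of these 10 genes, 7 were called higher in Dlx5CE-E12.5 cells and 1, Foxc1, in Fgfr3CE-E12.5 cells, beside 13.1% and 16.4% of all genes tested. Genes of other cells were present as well. The summed level of 15 pan-leukocyte markers was 745, 629.7 and 564 CPM in the Dlx5CE-E12.5 libraries and 1823 and 3908 CPM in the Fgfr3CE-E12.5 libraries. Of the 15, 14 were called higher in Fgfr3CE-E12.5 cells, beside 16.4% of all genes tested. Vav1 among them passed the filter on low counts only through the Fgfr3CE-E12.5 libraries. In such bulk samples, fewer cells of a type and less RNA per cell cannot be told apart.

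Cholesterol is built from acetyl-CoA through mevalonate, isoprenoid units, squalene and lanosterol, and fatty acids are built from the same acetyl-CoA by carboxylation and repeated extension, then desaturated, elongated and joined to glycerol. Enzymes of both branches are transcribed under SREBP factors, which leave the endoplasmic reticulum with their escort SCAP when membrane sterol is low and are held there by INSIG proteins when it is high. Marrow stromal cells include precursors of marrow adipocytes, which store triglyceride, and dividing cells of any type need sterols and fatty acids for new membrane.

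Fgfr3CE-E12.5 cells had more RNA of several sterol enzymes than Dlx5CE-E12.5 cells, among them Idi1 (3.59-fold), Cyp51 (2.63-fold) and Msmo1 (3.78-fold). Of the 5 SREBP regulators none was called, beside 29.5% of all genes tested in either direction. Their median log2 fold change, Fgfr3 over Dlx5, was 0.74, beside 0.67 over the 16 sterol enzymes. Scd2 (3.61-fold) and Agpat2 (5.40-fold), for desaturation and for glycerolipid synthesis, and the lipases Pnpla2 (2.23-fold) and Mgll (2.13-fold) were higher in Fgfr3CE-E12.5 cells too. Acaca (2.61-fold), Lpin1 (2.21-fold) and Stard4 (2.03-fold) were higher in Dlx5CE-E12.5 cells.

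Levels are given as normalized CPM, counts relative to the library total and scaled by TMM factors, with replicates 1, 2 and 3 of Dlx5CE-E12.5 cells always before replicates 2 and 3 of Fgfr3CE-E12.5 cells. Log2 fold changes are Fgfr3 over Dlx5, so that positive values are higher in Fgfr3CE-E12.5 cells, and ± gives their standard error. Tests are edgeR's quasi-likelihood tests, Benjamini-Hochberg adjusted over all genes tested, and a called gene had an adjusted p under 0.05 and an absolute log2 fold change over 1. Of the 40 members tested, 11 were called higher in Fgfr3CE-E12.5 cells, where 16.4% of all genes tested were, and 3 were called higher in Dlx5CE-E12.5 cells, where 13.1% of all genes were (29.5% either way). By the adjusted p-value alone, these counts were 18 and 4, against 25.0% and 23.4% of all genes tested. In 23 members both Fgfr3CE-E12.5 libraries lay above all Dlx5CE-E12.5 libraries and in 4 both lay below, against 36.2% and 32.8% of all genes. The median log2 fold change was 0.67 over 22 sterol genes and 0.58 over 18 fatty acid and triglyceride genes, beside 0.01 over all genes tested. Over all genes, 1653 were called higher in Fgfr3CE-E12.5 cells and 1318 in Dlx5CE-E12.5 cells. Scaled by library size alone, these counts were 1985 and 1009, and the medians were 0.88, 0.79 and 0.22, so the shift of both lists relative to all genes was nearly the same. The sterol median moved with base composition too, and was 0.41 after a trend on GC content was removed from each library, with the all-gene median at -0.06. For the fatty acid and triglyceride genes the same step gave 0.30.

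**Figure D1:**
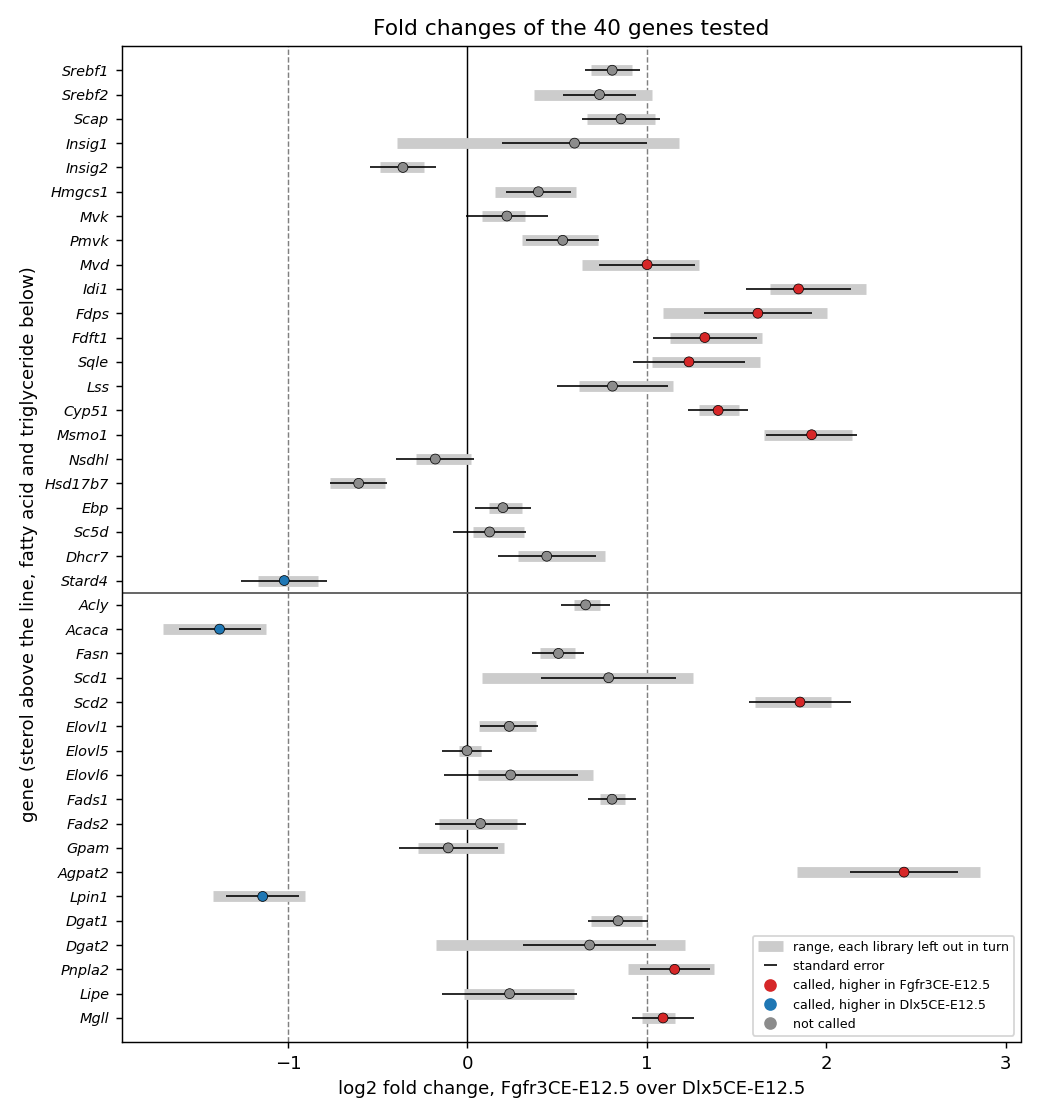
Log2 fold changes of the 40 genes tested, Fgfr3CE-E12.5 over Dlx5CE-E12.5, as points with standard errors as thin lines and, as grey bars, the range when each of the 5 libraries was left out in turn; dashed lines mark the fold change threshold. The 11 red points lie at or beyond 1.00 and the 3 blue points at or beyond -1.02, and the widest 2 grey bars, those of Insig1 and Dgat2, cross 0.

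None of the 5 regulators was called, beside 29.5% of all genes tested in either direction. By the adjusted p alone, 3 were higher in Fgfr3CE-E12.5 cells, beside 25.0% of all genes tested. Srebf1, which encodes the factor better known for fatty acid genes, was at 51.4, 63.9 and 61.6 CPM in Dlx5CE-E12.5 cells and 96.9 and 113 CPM in Fgfr3CE-E12.5 cells. Srebf2, which encodes the factor better known for sterol genes, was at 64.3, 61.5 and 57.4 against 80.5 and 127 CPM, and the escort gene Scap was at 27.7, 23.9 and 36.6 against 47.6 and 60.8 CPM. In these 3 genes both Fgfr3CE-E12.5 libraries lay above all Dlx5CE-E12.5 libraries. Their log2 fold changes of 0.81 ± 0.15, 0.74 ± 0.20 and 0.86 ± 0.22 had adjusted p-values of 0.00504, 0.0215 and 0.0159 in edgeR's quasi-likelihood test and did not reach the fold change threshold. It was passed by Srebf2 without Fgfr3CE-E12.5 replicate 2, at 1.03, by Scap without that library, at 1.02, or without Dlx5CE-E12.5 replicate 3, at 1.04, and by Srebf1 and Scap when scaled by library size alone, at 1.01 and 1.07. Conversely, Srebf2 was at 0.37 without Fgfr3CE-E12.5 replicate 3 (adjusted p = 0.0825 by edgeR) and did not pass without Dlx5CE-E12.5 replicate 2 (0.0659) or 3 (0.0650), and Scap did not pass without Fgfr3CE-E12.5 replicate 3 (0.0848) or Dlx5CE-E12.5 replicate 2 (0.0571). After the GC trend was removed, Srebf1, Srebf2 and Scap were at 0.41, 0.34 and 0.42, with adjusted p-values of 0.0316, 0.119 and 0.0912 (edgeR). Per kilobase of exon, Srebf2 was at 0.981, 0.754 and 0.731 times the level of Srebf1 in the Dlx5CE-E12.5 libraries and 0.652 and 0.878 times in the Fgfr3CE-E12.5 libraries, so this ratio did not separate the lineages.

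The INSIG genes differed from one another. Insig1, itself a target of SREBP factors, was at 53.7, 41.4 and 50.5 CPM in Dlx5CE-E12.5 cells and at 37.6 and 112 CPM in Fgfr3CE-E12.5 cells. The lowest and the highest of these values both belonged to Fgfr3CE-E12.5 libraries. Its log2 fold change of 0.60 ± 0.40 did not pass edgeR's quasi-likelihood test (adjusted p = 0.261). Without Fgfr3CE-E12.5 replicate 3 it was -0.40, and without Fgfr3CE-E12.5 replicate 2 it was 1.18 and past both thresholds. Insig2, which retains the same complex in the membrane, was at 175, 247 and 222 against 181 and 159 CPM, with overlapping groups and a log2 fold change of -0.36 (adjusted p = 0.144 in the same edgeR test). After the length trend was removed, Insig2 was at -0.66 and passed the adjusted p (0.0241, edgeR), under the fold change threshold. Per kilobase, Insig2 was at 2.90, 5.32 and 3.91 times the level of Insig1 in the Dlx5CE-E12.5 libraries and at 4.30 and 1.27 times in the Fgfr3CE-E12.5 libraries, where replicate 3 had the lowest ratio of all 5.

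**Figure D2:**
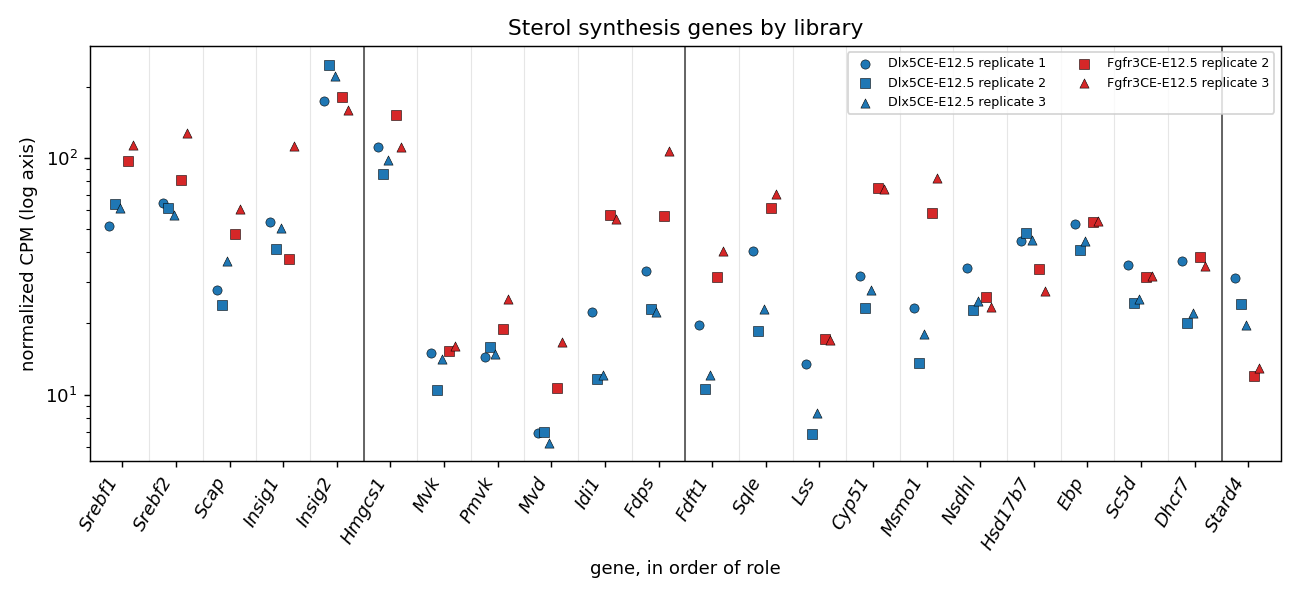
Normalized CPM (log axis) of the 22 sterol genes in each library, with Dlx5CE-E12.5 libraries in blue and Fgfr3CE-E12.5 libraries in red; vertical lines separate regulators, the mevalonate arm, squalene to cholesterol and the carrier. From Idi1 to Msmo1 every red point lies above the blue ones of the same gene, and Dlx5CE-E12.5 replicate 1 (blue circle) is often the highest blue point.

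In the mevalonate arm, which leads from acetyl-CoA to farnesyl diphosphate, 3 of 6 genes were called higher in Fgfr3CE-E12.5 cells, beside 16.4% of all genes tested, and the median log2 fold change was 0.77, beside 0.01. Idi1, the isomerase of the isoprenoid units, was at 22.3, 11.6 and 12.1 CPM in the Dlx5CE-E12.5 libraries and at 57.2 and 55.4 CPM in the Fgfr3CE-E12.5 libraries. Both Fgfr3CE-E12.5 libraries were above all Dlx5CE-E12.5 libraries and close to each other, and Dlx5CE-E12.5 replicate 1 was the highest of its group. The mean was 15.3 ± 6.02 (SD, n = 3) against 56.3 ± 1.26 (SD, n = 2). Idi1 rose 3.59-fold, a log2 fold change of 1.85 ± 0.29 (adjusted p = 0.00238 in edgeR's quasi-likelihood test). Fdps, which condenses these units into farnesyl diphosphate, was at 33.4, 22.99 and 22.3 against 56.8 and 107 CPM. Its Fgfr3CE-E12.5 libraries were again above the others, but replicate 3 was at 1.89 times replicate 2, and without replicate 3 its log2 fold change was 1.09. Fdps rose 3.07-fold (log2 fold change 1.62 ± 0.30, adjusted p = 0.00456, edgeR's quasi-likelihood test). Mvd, the decarboxylase that yields isopentenyl diphosphate, was at 6.93, 6.95 and 6.29 against 10.7 and 16.8 CPM. These groups did not overlap, and its log2 fold change of 1.00 ± 0.27 (adjusted p = 0.0193 by edgeR) lay on the threshold. Mvd reached 10 CPM only in the Fgfr3CE-E12.5 libraries. It thus entered the test, and the count of 3, through the group where it was higher. With the filter lowered to 1 CPM its log2 fold change was 0.98 (adjusted p = 0.0225 by edgeR), under the threshold. The call of Mvd was lost under 10 of 15 alternatives, some of which moved it by very little, among them the fits without Dlx5CE-E12.5 replicate 2 (adjusted p = 0.0563), without Dlx5CE-E12.5 replicate 3 (0.0615) and without Fgfr3CE-E12.5 replicate 3 (0.158, at a log2 fold change of 0.64 by edgeR). After the GC trend was removed, its log2 fold change was 0.54.

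The other genes of this arm did not pass the test. Hmgcs1, whose product makes HMG-CoA, was at 111, 85.7 and 97.8 CPM in Dlx5CE-E12.5 cells and at 152 and 111 CPM in Fgfr3CE-E12.5 cells, where replicate 3 lay just above the highest Dlx5CE-E12.5 library. Mevalonate kinase, Mvk, was at 15.02, 10.5 and 14.2 against 15.3 and 16.1 CPM, and phosphomevalonate kinase, Pmvk, was at 14.4, 15.95 and 14.9 against 18.98 and 25.5 CPM. The log2 fold changes were 0.40, 0.22 and 0.53, with standard errors of 0.18, 0.23 and 0.20 and adjusted p-values of 0.116, 0.460 and 0.0672 (edgeR's quasi-likelihood test). These values moved when 1 library was left out. Hmgcs1 was at 0.15 without Fgfr3CE-E12.5 replicate 2 and at 0.60 (adjusted p = 0.0380) without replicate 3, and Pmvk was at 0.30 without Fgfr3CE-E12.5 replicate 3 and at 0.73 (0.0302) without replicate 2 (edgeR). Mvk ranged from 0.0826 without Dlx5CE-E12.5 replicate 2 to 0.32 without Dlx5CE-E12.5 replicate 1. By the adjusted p alone, Hmgcs1 also passed when scaled by library size alone (0.0266) and after the GC trend was removed (0.0499), and Pmvk when scaled by library size alone (0.0213) and in DESeq2's Wald test (0.0461). The 3 called genes were the last 3 of the 6 in pathway order. A difference between early and late steps was not tested.

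From squalene to cholesterol, 4 of 10 genes were called higher in Fgfr3CE-E12.5 cells and none was called higher in Dlx5CE-E12.5 cells, beside 16.4% and 13.1% of all genes tested, with a median of 0.63. Squalene synthase, Fdft1, was at 19.6, 10.5 and 12.1 CPM in Dlx5CE-E12.5 cells and 31.5 and 40.5 CPM in Fgfr3CE-E12.5 cells. Squalene epoxidase, Sqle, was at 40.4, 18.7 and 23.1 against 61.5 and 70.1 CPM. In both genes the groups did not overlap, and Dlx5CE-E12.5 replicate 1 was far above the other Dlx5CE-E12.5 libraries. Fdft1 rose by 1.32 ± 0.29 (adjusted p = 0.00891) and Sqle by 1.23 ± 0.31 (0.0156) on the log2 scale in edgeR's quasi-likelihood test. Without Fgfr3CE-E12.5 replicate 3, their adjusted p-values were 0.0520 and 0.0695 (edgeR), at log2 fold changes of 1.13 and 1.14.

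Cyp51 and Msmo1 encode the enzymes that take methyl groups off lanosterol and its products. Cyp51 was at 31.7, 23.2 and 27.7 CPM in the Dlx5CE-E12.5 libraries and at 74.3 and 73.6 CPM in the Fgfr3CE-E12.5 libraries, and Msmo1 was at 23.2, 13.6 and 18.1 against 58.6 and 82.5 CPM. Every Fgfr3CE-E12.5 library exceeded every Dlx5CE-E12.5 library by a wide margin, and the Fgfr3CE-E12.5 libraries were alike in Cyp51 (replicate 3 at 0.991 times replicate 2) and less so in Msmo1 (1.41 times). Cyp51 averaged 27.5 ± 4.26 (SD, n = 3) and 73.9 ± 0.485 (SD, n = 2) CPM and rose 2.63-fold (log2 fold change 1.40 ± 0.17, adjusted p = 0.000733, edgeR's quasi-likelihood test). Msmo1 averaged 18.3 ± 4.77 and 70.6 ± 16.9 CPM and rose 3.78-fold (1.92 ± 0.26, adjusted p = 0.00114, same edgeR test), the largest fold change among the sterol genes. Idi1, Fdps, Cyp51 and Msmo1 were called in each of the 5 fits that left out 1 library. Without Fgfr3CE-E12.5 replicate 3, these 4 and Stard4 were the 5 sterol genes called, in place of 8, while the calls over all genes were 2535 in place of 2971.

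The remaining enzymes of this stretch were lower, level or in between. Lanosterol synthase, Lss, was at 13.5, 6.86 and 8.35 CPM in Dlx5CE-E12.5 cells and 17.3 and 17.03 CPM in Fgfr3CE-E12.5 cells, with no overlap but a wide spread among Dlx5CE-E12.5 libraries. Its log2 fold change of 0.81 had an adjusted p of 0.0693, and without Dlx5CE-E12.5 replicate 1 the values were 1.14 and 0.00982 (edgeR's quasi-likelihood test). It also passed both thresholds when scaled by library size alone, at 1.02, with the replicate number as a block, at 1.15, and after the length trend was removed, at 1.16, and the adjusted p alone in DESeq2's Wald test (0.0401) and edgeR's exact test (0.0364). Hsd17b7, a sterol keto-reductase, went the other way, with 44.8, 48.3 and 44.98 CPM in Dlx5CE-E12.5 cells and 34.1 and 27.5 CPM in Fgfr3CE-E12.5 cells. All Dlx5CE-E12.5 libraries were the higher ones, and its log2 fold change of -0.61 ± 0.16 (adjusted p = 0.0179 by edgeR) did not reach the fold change threshold. Its adjusted p was 0.0775 without Dlx5CE-E12.5 replicate 2, 0.0542 without Dlx5CE-E12.5 replicate 3, 0.0591 without Fgfr3CE-E12.5 replicate 3 and 0.0802 when scaled by library size alone (edgeR). Nsdhl, which acts with Hsd17b7 in demethylation, was at 34.4, 22.9 and 25.002 against 25.9 and 23.5 CPM, and the isomerase Ebp was at 52.6, 40.8 and 44.7 against 53.4 and 54.2 CPM. The desaturase Sc5d was at 35.4, 24.4 and 25.5 against 31.5 and 31.7 CPM, and the reductase Dhcr7 was at 36.9, 20.01 and 22.2 against 38.02 and 35.1 CPM. In Nsdhl, Sc5d and Dhcr7 the groups overlapped, and in Ebp they were separated by less than the spread of the Dlx5CE-E12.5 libraries. These 4 genes had log2 fold changes from -0.18 (Nsdhl) to 0.44 (Dhcr7) and adjusted p-values from 0.222 to 0.646 in edgeR's quasi-likelihood test. Dhcr7 passed the adjusted p, under the fold change threshold, without Dlx5CE-E12.5 replicate 1 (0.76, adjusted p = 0.0159) and with the replicate number as a block (0.76, 0.0244, edgeR). Without Dlx5CE-E12.5 replicate 1, Nsdhl, Ebp and Sc5d were at 0.0176, 0.31 and 0.31, and without Dlx5CE-E12.5 replicate 2 they were at -0.29, 0.12 and 0.0301.

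Stard4, a carrier that moves sterol between membranes, was the only sterol gene called higher in Dlx5CE-E12.5 cells, at 30.99, 24.1 and 19.6 CPM against 12.04 and 12.98 CPM. The groups did not overlap. Its log2 fold change was -1.02 ± 0.24 (adjusted p = 0.0119 by edgeR's quasi-likelihood test), and it fell short of the threshold under 6 of 15 alternatives: without Dlx5CE-E12.5 replicate 1, at -0.83, without Fgfr3CE-E12.5 replicate 2, at -0.97, when scaled by library size alone, at -0.81, with the replicate number as a block, at -0.83, after the GC trend was removed, at -0.98, and with all features, at -0.99. The fit with the block and the fit without Dlx5CE-E12.5 replicate 1 are not independent, since only Dlx5CE-E12.5 cells have a replicate 1.

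Promoter sequences of some of these genes are given as reference, with no test against expression. A window from 250 bases before to 50 bases after the transcription start, from RefSeq on GRCm38.p6, was available for 32 of the 41 members. On either strand, windows were searched for TCACNCCAC (a sterol regulatory element), CCAAT (the CCAAT box) and CACGTG (an E-box), and a gene with several windows counted once. CCAAT was found in 17 of 18 sterol genes, Scap being the exception, and in 6 of 14 fatty acid and triglyceride genes, beside 41.1% of 27025 genes with such windows. TCACNCCAC was found in Hmgcs1 alone among the 32, beside 1.44% of all genes, and CACGTG in 5 of 18 and 3 of 14, beside 8.09% of all genes. A match is a description of letters and not of a bound site. The search took exact letters within these windows only, so a missing match does not mean that a gene lacks such an element. The windows shown are those of 3 sterol genes called in every fit, of Hmgcs1, and of Agpat2, the member with the largest fold change, in which none of these motifs was found. Each is written 5′ to 3′ on the strand of the gene, with matches in capitals (ATTGG is CCAAT on the other strand). They are Idi1 (ENSMUSG00000058258, chr13:8885356-8885655, forward strand), Cyp51 (ENSMUSG00000001467, chr5:4104648-4104947, reverse strand), Msmo1 (ENSMUSG00000031604, chr8:64733529-64733828, reverse strand), Hmgcs1 (ENSMUSG00000093930, chr13:119690101-119690400, forward strand) and Agpat2 (ENSMUSG00000026922, chr2:26604368-26604667, reverse strand).
Idi1: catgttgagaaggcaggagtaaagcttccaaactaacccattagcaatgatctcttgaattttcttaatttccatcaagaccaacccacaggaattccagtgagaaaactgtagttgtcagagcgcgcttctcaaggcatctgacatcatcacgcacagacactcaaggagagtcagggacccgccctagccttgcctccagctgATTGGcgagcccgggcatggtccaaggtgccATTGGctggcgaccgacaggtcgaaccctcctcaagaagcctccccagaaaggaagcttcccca
Cyp51: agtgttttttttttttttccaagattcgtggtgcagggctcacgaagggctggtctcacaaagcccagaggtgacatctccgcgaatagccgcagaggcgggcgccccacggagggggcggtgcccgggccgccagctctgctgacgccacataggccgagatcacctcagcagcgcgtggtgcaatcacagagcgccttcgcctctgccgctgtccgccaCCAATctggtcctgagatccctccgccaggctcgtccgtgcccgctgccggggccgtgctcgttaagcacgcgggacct
Msmo1: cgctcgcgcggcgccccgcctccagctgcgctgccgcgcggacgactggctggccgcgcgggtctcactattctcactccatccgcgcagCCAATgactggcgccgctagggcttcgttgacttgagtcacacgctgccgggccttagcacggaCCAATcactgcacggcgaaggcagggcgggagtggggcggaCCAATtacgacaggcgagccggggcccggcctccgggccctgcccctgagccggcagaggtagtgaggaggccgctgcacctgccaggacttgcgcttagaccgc
Hmgcs1: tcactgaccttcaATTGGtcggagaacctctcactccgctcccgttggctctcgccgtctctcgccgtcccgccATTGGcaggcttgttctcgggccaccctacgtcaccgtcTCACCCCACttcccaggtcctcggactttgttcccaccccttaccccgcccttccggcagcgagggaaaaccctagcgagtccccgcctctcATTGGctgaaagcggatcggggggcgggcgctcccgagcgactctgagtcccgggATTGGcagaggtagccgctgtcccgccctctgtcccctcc
Agpat2: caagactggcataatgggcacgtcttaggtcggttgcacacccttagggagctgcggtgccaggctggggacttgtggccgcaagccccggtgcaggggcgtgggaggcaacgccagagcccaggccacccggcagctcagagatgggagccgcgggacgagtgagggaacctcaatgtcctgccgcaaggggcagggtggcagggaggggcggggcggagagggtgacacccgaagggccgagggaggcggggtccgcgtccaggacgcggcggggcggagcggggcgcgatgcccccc

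The 5 windows carried 2, 1, 3, 4 and 0 CCAAT matches in the order shown. Genes that did not pass the test carried such matches too, for example Mvk with 5 and Nsdhl with 4.

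The sterol enzymes also varied together among Dlx5CE-E12.5 libraries. The summed level of the 16 enzymes was 535, 383 and 419 CPM in the Dlx5CE-E12.5 libraries and 737 and 788 CPM in the Fgfr3CE-E12.5 libraries. Replicate 1 was the highest Dlx5CE-E12.5 library for 13 of the 16, which was so for 39.5% of all genes tested. Among the Dlx5CE-E12.5 libraries, the summed erythroid, B lineage, proliferation, osteoblast, pan-leukocyte, endothelial, chondrocyte and marrow stroma markers were also highest in replicate 1, at 2.04, 2.37 (without Ebf1), 1.62, 1.35, 1.18, 1.29, 1.07 and 1.04 times replicate 2, beside 1.40 for the sterol enzymes. The summed neutrophil, macrophage and adipocyte markers were not highest there, at 0.842, 0.761 and 0.895 times replicate 2. The 9 erythroid markers summed to 36038, 17643 and 23321 CPM in Dlx5CE-E12.5 cells and 14042 and 20901 CPM in Fgfr3CE-E12.5 cells, with Hbb-bs the most abundant. Of these, 2 were called higher in Dlx5CE-E12.5 cells, beside 13.1% of all genes tested. Of 9 B lineage markers, 6 were tested, with 2 called higher in Fgfr3CE-E12.5 cells, beside 16.4% of all genes tested. Of these 2, Igll1 reached 10 CPM only in Fgfr3CE-E12.5 libraries and entered the count through that group. In Dlx5CE-E12.5 cells 1, Ebf1, also a stromal marker, was called higher, beside 13.1%. The 8 others summed to 232, 97.6 and 92.7 against 239.7 and 431 CPM, with Cd79a the most abundant. The part of these cells in the levels of sterol enzymes was not tested. Without Dlx5CE-E12.5 replicate 1, 8 sterol genes were called higher in Fgfr3CE-E12.5 cells and none in Dlx5CE-E12.5 cells, beside 1683 and 1322 of all genes.

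Reads of several members can be shared with other genes, and how such reads were counted is not given in the sources used here. The share of 50-base windows found in another gene was 25.3% for Idi1, whose partners include the pseudogene Gm13502, 26.2% for Fdps, which overlaps Gm43738, and 26.5% for Fdft1, whose partner Ctsb overlaps it on the opposite strand. Gm13502 had 32, 6, 12, 68 and 48 counts in the 5 libraries and Gm43738 had 0, 0, 0, 20 and 0, both far below their partners, whereas Ctsb was at 1536 to 1896 CPM. Hmgcs1, at 11.6%, and Lipe, at 10.8%, share windows as well. The levels of these genes are thus less certain. In a step added after seeing the data, members with 10% or more shared windows were left out. These were Hmgcs1, Idi1, Fdps and Fdft1 of the 22 sterol genes, and Acaca and Lipe of the 18 fatty acid and triglyceride genes tested. In each list 5 genes were then called, 4 higher in Fgfr3CE-E12.5 cells and 1 in Dlx5CE-E12.5 cells. Over all genes tested the shares were 16.4% and 13.1% (29.5% either way).

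Among 11 other genes of sterol synthesis and SREBP processing, 9 were tested, 3 were called higher in Fgfr3CE-E12.5 cells and 1 in Dlx5CE-E12.5 cells, beside 16.4% and 13.1% of all genes tested, with a median log2 fold change of 0.11. Lbr, which encodes a nuclear membrane protein with sterol reductase activity, was at 178, 142 and 129 CPM in Dlx5CE-E12.5 cells and 371 and 474 CPM in Fgfr3CE-E12.5 cells. Rnf139, a ubiquitin ligase of the endoplasmic reticulum, was at 31.7, 25.3 and 24.9 against 66.3 and 62.8 CPM. In both the Fgfr3CE-E12.5 libraries were the higher ones, and they rose by 1.47 and 1.21 on the log2 scale (adjusted p = 0.00101 and 0.00117, edgeR's quasi-likelihood test). Mbtps2, a protease that releases SREBP factors in the Golgi, was at 17.3, 21.2 and 16.2 against 9.84 and 8.35 CPM, lower in both Fgfr3CE-E12.5 libraries (log2 fold change -1.03, adjusted p = 0.00899, same edgeR test). Shared windows made up 28.9% of Mbtps2, which overlaps Yy2 on the same strand, and 24.9% of Rnf139, which overlaps Tatdn1 on the opposite strand.

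Of 16 genes of sterol export, storage and the response to oxysterols, 14 were tested, 3 were called higher in Fgfr3CE-E12.5 cells and 2 in Dlx5CE-E12.5 cells, beside 16.4% and 13.1% of all genes tested, with a median of -0.18. Osbp, an oxysterol-binding protein that exchanges sterol for phosphoinositide at the Golgi, was at 4.70, 4.10 and 4.59 CPM in Dlx5CE-E12.5 cells and 71.6 and 67.1 CPM in Fgfr3CE-E12.5 cells. This was the largest fold change among the pathway genes tested, and Osbp rose by 3.93 ± 0.16 on the log2 scale (adjusted p = 3.60e-05, edgeR's quasi-likelihood test). Nceh1, a cholesterol ester hydrolase, was at 3.66, 3.68 and 2.97 against 11.1 and 13.8 CPM, and Scarb1, a lipoprotein receptor, was at 33.3, 30.8 and 27.5 against 54.7 and 94.7 CPM. Both were higher in each Fgfr3CE-E12.5 library, by 1.83 and 1.27 (adjusted p = 0.00139 and 0.00490 by edgeR). Conversely, Npc2, which hands cholesterol out of lysosomes, was at 664, 582 and 594 against 177 and 157 CPM, and the sterol exporter Abcg1 was at 19.2, 22.99 and 19.6 against 5.62 and 7.61 CPM. Both fell in Fgfr3CE-E12.5 cells relative to Dlx5CE-E12.5 cells, with log2 fold changes of -1.91 and -1.66 (adjusted p = 0.000172 and 0.00153 by edgeR). Neither showed overlap. Osbp and Nceh1 reached 10 CPM only in Fgfr3CE-E12.5 libraries, and Abcg1 only in Dlx5CE-E12.5 libraries. They entered the test, and the counts above, through the group where each was higher. With the filter lowered to 1 CPM, Osbp, Nceh1 and Abcg1 were at 3.91, 1.81 and -1.69.

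Among the genes of fatty acids and triglycerides, 4 of 18 tested were called higher in Fgfr3CE-E12.5 cells and 2 were called higher in Dlx5CE-E12.5 cells, beside 16.4% and 13.1% of all genes tested. Fatty acid synthesis itself was split. Acly, which makes cytosolic acetyl-CoA from citrate, was at 145, 124 and 122 CPM in Dlx5CE-E12.5 cells and 200.3 and 219 CPM in Fgfr3CE-E12.5 cells, and fatty acid synthase, Fasn, was at 39.1, 37.9 and 34.7 against 50.2 and 57.6 CPM. Both were higher in each Fgfr3CE-E12.5 library, with log2 fold changes of 0.66 ± 0.14 (adjusted p = 0.00751) and 0.51 ± 0.14 (0.0248) in edgeR's quasi-likelihood test, under the fold change threshold. Fasn depended on the processing, since its log2 fold change was 1.27 and called after a trend on transcript length was removed, and 0.13 (adjusted p = 0.462) after the GC trend was removed. Its adjusted p in edgeR was 0.0837 without Dlx5CE-E12.5 replicate 2, 0.102 without Dlx5CE-E12.5 replicate 3, 0.0863 without Fgfr3CE-E12.5 replicate 3 and 0.0582 with the replicate number as a block.

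Acaca, the acetyl-CoA carboxylase that commits carbon to fatty acids and lies between Acly and Fasn in the pathway, went in the opposite direction. It was at 27.1, 27.8 and 25.8 CPM in the Dlx5CE-E12.5 libraries and at 12.6 and 8.44 CPM in the Fgfr3CE-E12.5 libraries. The Dlx5CE-E12.5 libraries were nearly equal and all above the Fgfr3CE-E12.5 libraries. Acaca averaged 26.9 ± 1.02 (SD, n = 3) and 10.5 ± 2.93 (SD, n = 2) CPM and was 2.61-fold higher in Dlx5CE-E12.5 cells (log2 fold change -1.38 ± 0.23, adjusted p = 0.00277, edgeR's quasi-likelihood test). It was called without each library in turn, but after the trend on transcript length was removed its log2 fold change was -0.72, under the threshold. Of its 50-base windows 30.4% also occur elsewhere, for example in the pseudogene Gm5182, which had 35, 35, 32, 0 and 0 counts in the 5 libraries. Acacb, the mitochondrial carboxylase, was the member that failed the filter, with 18, 26 and 20 counts in Dlx5CE-E12.5 cells and 34 and 146 in Fgfr3CE-E12.5 cells. With the filter lowered to 1 CPM its log2 fold change was 0.70 (with an adjusted p of 0.472 by edgeR's quasi-likelihood test). Per kilobase, Acacb was at 0.0381, 0.0773 and 0.0544 times the level of Acaca in Dlx5CE-E12.5 libraries and 0.0787 and 0.489 times in Fgfr3CE-E12.5 libraries.

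**Figure D3:**
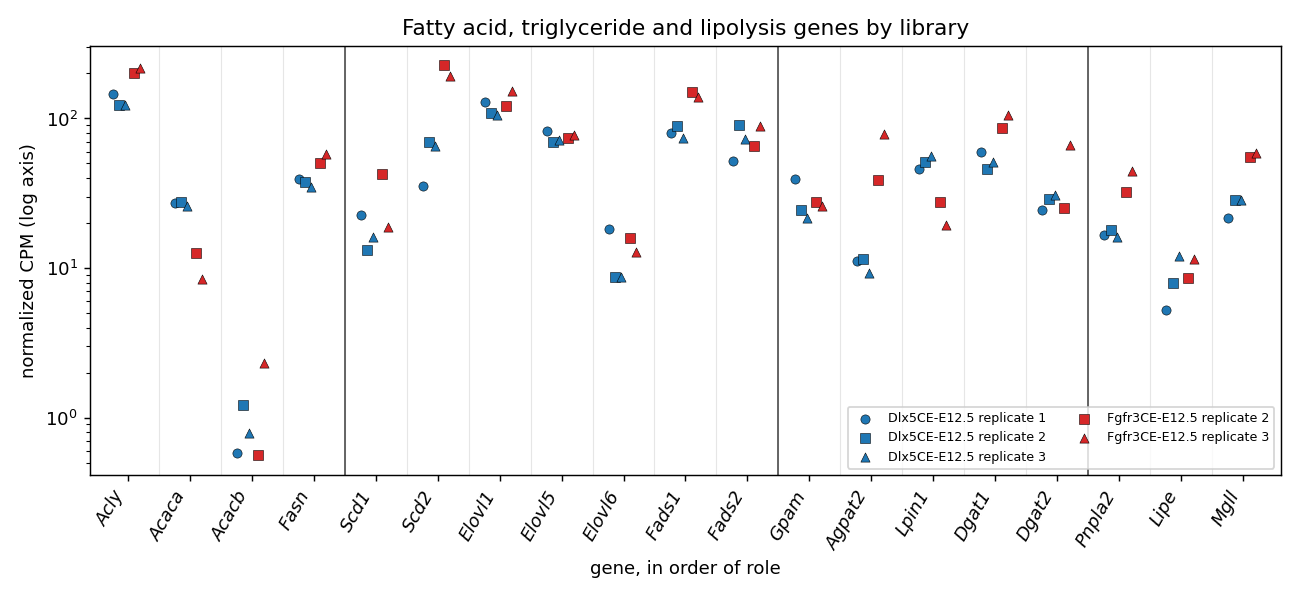
Normalized CPM (log axis) of the 19 fatty acid, triglyceride and lipolysis genes in each library, with Dlx5CE-E12.5 libraries in blue and Fgfr3CE-E12.5 libraries in red; vertical lines separate fatty acid synthesis, desaturation and elongation, triglyceride synthesis and lipolysis. Scd2 and Agpat2 show red points well above the blue ones, and Acaca and Lpin1 show them below.

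Of 7 genes of desaturation and elongation, 1 was called, beside 29.5% of all genes tested in either direction, and the median log2 fold change was 0.24. Scd2, a stearoyl-CoA desaturase that makes monounsaturated fatty acids, was at 35.4, 69.8 and 65.8 CPM in Dlx5CE-E12.5 cells and 226 and 193 CPM in Fgfr3CE-E12.5 cells. The Fgfr3CE-E12.5 libraries were far above the rest, and Dlx5CE-E12.5 replicate 1 was the lowest of all. Scd2 averaged 56.99 ± 18.8 (SD, n = 3) and 209.7 ± 23.4 (SD, n = 2) CPM and rose 3.61-fold (log2 fold change 1.85 ± 0.28, adjusted p = 0.00200, edgeR's quasi-likelihood test), and it was called without each library in turn. Its paralog Scd1 was at 22.8, 13.2 and 16.2 against 42.4 and 18.8 CPM. Here Dlx5CE-E12.5 replicate 1 exceeded Fgfr3CE-E12.5 replicate 3, so the groups overlapped. The log2 fold change of Scd1 was 0.79 ± 0.38 (adjusted p = 0.126 by edgeR), and it was 1.26 and past both thresholds without Fgfr3CE-E12.5 replicate 3, but 0.0812 (adjusted p = 0.858) without Fgfr3CE-E12.5 replicate 2. Per kilobase, Scd2 was at 1.39, 4.75 and 3.64 times the level of Scd1 in the Dlx5CE-E12.5 libraries and at 4.78 and 9.22 times in the Fgfr3CE-E12.5 libraries, so that Scd2 was the more abundant paralog in all 5.

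Fads1, which desaturates long polyunsaturated fatty acids, was at 80.6, 88.8 and 73.6 CPM in Dlx5CE-E12.5 cells and 149.6 and 139 CPM in Fgfr3CE-E12.5 cells, without overlap. Its log2 fold change of 0.81 ± 0.14 (adjusted p = 0.00298 by edgeR's quasi-likelihood test) was under the fold change threshold, except at 1.01 when scaled by library size alone. Fads2, which acts before Fads1 on the same chains, was at 51.97, 90.2 and 73.03 against 65.3 and 88.4 CPM, with overlapping groups and a log2 fold change of 0.07 (adjusted p = 0.831 by edgeR). The ratio of Fads2 to Fads1 per kilobase was 0.942, 1.48 and 1.45 in the Dlx5CE-E12.5 libraries and 0.638 and 0.929 in the Fgfr3CE-E12.5 libraries, the latter both lower. The elongases did not pass the test. Elovl1, for saturated chains, was at 129, 108 and 105 against 121 and 152 CPM, Elovl5, for polyunsaturated chains, at 82.6, 69.2 and 71.96 against 73.7 and 78.1 CPM, and Elovl6, which extends palmitate, at 18.4, 8.67 and 8.74 against 15.99 and 12.8 CPM. Groups overlapped in each, with log2 fold changes of 0.23, 0.00 and 0.24 and adjusted p-values of 0.273, 0.991 and 0.625 (edgeR's quasi-likelihood test). Elovl6 was at 0.70 (adjusted p = 0.0524 by edgeR) without Dlx5CE-E12.5 replicate 1 and at 0.0586 without Dlx5CE-E12.5 replicate 3, and Elovl1 was at 0.064 without Fgfr3CE-E12.5 replicate 3 and 0.38 without replicate 2.

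Triglyceride synthesis held the largest fold change of the 41 genes. Agpat2, the acyltransferase that makes phosphatidic acid, was at 11.2, 11.5 and 9.26 CPM in the Dlx5CE-E12.5 libraries and at 38.7 and 78.5 CPM in the Fgfr3CE-E12.5 libraries. The Dlx5CE-E12.5 libraries were close together and both Fgfr3CE-E12.5 libraries lay above them, replicate 3 at 2.03 times replicate 2. Agpat2 averaged 10.6 ± 1.21 (SD, n = 3) and 58.6 ± 28.2 (SD, n = 2) CPM and rose 5.40-fold (log2 fold change 2.43 ± 0.30, adjusted p = 0.000850, edgeR's quasi-likelihood test). With each library left out its log2 fold change was 1.84 (without Fgfr3CE-E12.5 replicate 3) to 2.86 (without Fgfr3CE-E12.5 replicate 2). Agpat1, an enzyme with the same activity outside the 41 genes, was the only one called among 13 tested of 22 other genes of glycerolipid synthesis and lipolysis, beside 29.5% of all genes tested in either direction. It was at 32.3, 44.2 and 34.7 against 17.9 and 13.4 CPM, higher in every Dlx5CE-E12.5 library (log2 fold change -1.27 ± 0.22, adjusted p = 0.00358 by edgeR). Per kilobase, Agpat2 was at 0.489, 0.366 and 0.375 times the level of Agpat1 in the Dlx5CE-E12.5 libraries and at 3.05 and 8.28 times in the Fgfr3CE-E12.5 libraries, so that the more abundant of the pair differed between the lineages. This ratio was chosen after the values were seen and is given without a test.

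Lpin1, the phosphatase that turns phosphatidic acid into diacylglycerol, was at 45.6, 51.1 and 55.9 CPM in Dlx5CE-E12.5 cells and 27.6 and 19.4 CPM in Fgfr3CE-E12.5 cells. Every Dlx5CE-E12.5 library was the higher, by 2.21-fold in the fit (log2 fold change -1.14 ± 0.20, adjusted p = 0.00380, edgeR's quasi-likelihood test). Its log2 fold change was -0.91 without Fgfr3CE-E12.5 replicate 3 and -0.93 when scaled by library size alone, both under the threshold. Of the enzymes that complete triglyceride, Dgat1 was at 59.8, 45.7 and 51.5 against 86.1 and 105 CPM and Dgat2 at 24.3, 28.8 and 30.9 against 25.3 and 66.2 CPM. Dgat1 was higher in both Fgfr3CE-E12.5 libraries, with a log2 fold change of 0.84 under the threshold (adjusted p = 0.00610 by edgeR). When scaled by library size alone it was 1.05 and called, and after the GC trend was removed it was 0.53. For Dgat2 only Fgfr3CE-E12.5 replicate 3 stood above the others, and its log2 fold change of 0.68 (with an adjusted p of 0.169 by edgeR) was 1.21 and called without replicate 2, and -0.17 without replicate 3. Dgat2 was at 0.403, 0.625 and 0.593 times the level of Dgat1 per kilobase in the Dlx5CE-E12.5 libraries and 0.291 and 0.625 times in the Fgfr3CE-E12.5 libraries. Gpam, which adds the acyl chain that starts the pathway, was at 39.4, 24.3 and 21.5 against 27.8 and 25.98 CPM, with a log2 fold change of -0.11 (adjusted p = 0.770 by edgeR).

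Of the lipases, 2 of 3 were called higher in Fgfr3CE-E12.5 cells, beside 16.4% of all genes tested. Pnpla2, which takes the first fatty acid off stored triglyceride, was at 16.6, 18.1 and 16.1 CPM in Dlx5CE-E12.5 cells and 32.1 and 44.7 CPM in Fgfr3CE-E12.5 cells. Mgll, which acts last, on monoglyceride, was at 21.8, 28.4 and 28.6 against 55.2 and 58.5 CPM. In both the groups were well apart, and they rose by 1.16 ± 0.19 (adjusted p = 0.00295) and 1.09 ± 0.17 (0.00221) on the log2 scale in edgeR's quasi-likelihood test. Lipe, hormone-sensitive lipase, was at 5.21, 7.93 and 12.1 against 8.59 and 11.6 CPM, with overlapping groups and a log2 fold change of 0.23 (adjusted p = 0.637 by edgeR). The calls of Pnpla2 and Mgll were lost after the GC trend was removed, at 0.82 and 0.85, and after the length trend was removed, at 0.86 and 0.84. That of Pnpla2 was also lost without Fgfr3CE-E12.5 replicate 3, at 0.90, and that of Mgll without Dlx5CE-E12.5 replicate 1 and with the replicate number as a block, at 0.97 and 0.97.

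Of 22 other genes of fatty acid supply, elongation and activation, 15 were tested, 2 were called higher in Fgfr3CE-E12.5 cells and 1 in Dlx5CE-E12.5 cells, beside 16.4% and 13.1% of all genes tested (median log2 fold change 0.07). Me1, the malic enzyme that supplies NADPH, was at 11.8, 4.80 and 6.29 CPM in Dlx5CE-E12.5 cells and 24.9 and 20.99 CPM in Fgfr3CE-E12.5 cells, and Acsl3, which activates fatty acids, was at 24.8, 23.04 and 38.02 against 84.01 and 68.5 CPM. Elovl4, which extends very long chains, was at 27.4, 45.99 and 64.5 against 10.01 and 4.996 CPM. None of these groups overlapped, and the log2 fold changes were 1.55, 1.39 and -2.64 (adjusted p = 0.0131, 0.00327 and 0.00330, edgeR's quasi-likelihood test). Shared windows made up 28.3% of Me1. Of 18 genes of fatty acid oxidation, 17 were tested, 1 was called in each direction, beside the same shares of all genes, and the median was -0.18. Acaa2, the mitochondrial thiolase, was at 66.3, 65.2 and 60.7 against 121 and 144 CPM and was called higher in Fgfr3CE-E12.5 cells (log2 fold change 1.02, adjusted p = 0.00111 by edgeR).

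Several lists of markers of other cells differed between the lineages. The pan-leukocyte markers had Arhgdib as their most abundant gene, at 156, 141 and 119.7 CPM in Dlx5CE-E12.5 cells and 326 and 789 CPM in Fgfr3CE-E12.5 cells, and none of the 15 was at 0. All 11 neutrophil markers were called higher in Fgfr3CE-E12.5 cells, beside 16.4% of all genes tested. Their sums were 2606, 3094 and 2488 CPM against 7141 and 17628 CPM, with Ngp the most abundant. Of 10 macrophage markers, 8 were tested and 6 were called higher in Fgfr3CE-E12.5 cells, beside the same 16.4%. The sums of the 10 were 385, 506 and 445 against 1540.3 and 3499.6 CPM, with Lyz2 the most abundant. Among the called genes of these lists, Vav1, Cebpe, Cd68 and Adgre1 did not reach 10 CPM in 2 Dlx5CE-E12.5 libraries. They entered the test, and the counts, through the Fgfr3CE-E12.5 libraries, where they were higher. The sums of the pan-leukocyte, neutrophil and macrophage lists in Fgfr3CE-E12.5 replicate 3 were 2.14, 2.47 and 2.27 times those in replicate 2. Over the 16 sterol enzymes the same ratio was 1.07, and it was 0.969 for Idi1 and 0.991 for Cyp51, whereas it was 1.89 for Fdps, 2.03 for Agpat2, 2.62 for Dgat2 and 2.98 for Insig1. The part of leukocytes in the fold changes of the lipid genes was not tested.

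Proliferation markers were higher in Fgfr3CE-E12.5 cells as well, 8 of 12 by call, beside 16.4% of all genes tested, with sums of 755, 465 and 538 CPM in Dlx5CE-E12.5 cells and 1447 and 1742 CPM in Fgfr3CE-E12.5 cells and Rrm2 the most abundant. They followed the same order of libraries as the summed sterol enzymes, and their part was not tested. Bub1, among the 8 called, reached 10 CPM only in Fgfr3CE-E12.5 libraries and entered the count through that group. Of 8 osteoblast markers, 5 were called higher in Fgfr3CE-E12.5 cells, beside the same 16.4%. Their sums were 6462, 4795 and 4424 against 12636 and 15829.6 CPM, with Col1a1 the most abundant in Dlx5CE-E12.5 cells and Spp1 in Fgfr3CE-E12.5 cells. The 6 chondrocyte markers summed to 132, 124 and 127 against 3111 and 421 CPM, and Col9a1 had 0 counts in every Dlx5CE-E12.5 library. Of 2 tested, 1, Col2a1, was called higher in Fgfr3CE-E12.5 cells, beside 16.4% of all genes tested. It reached 10 CPM only in Fgfr3CE-E12.5 libraries and entered the count through that group. The most abundant chondrocyte marker was Sox9 in Dlx5CE-E12.5 cells and Col2a1 in Fgfr3CE-E12.5 cells. The chondrocyte sum in Fgfr3CE-E12.5 replicate 3 was 0.135 times that in replicate 2, and among the 41 genes this ratio was lowest for Scd1, at 0.442.

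Marrow adipocytes have a marker list of their own, which shares Adipoq with that of the marrow stroma. Of 9 adipocyte markers, 8 were found in the table and 4 were tested. Of these 1, Adipoq, was called higher in Dlx5CE-E12.5 cells, beside 13.1% of all genes tested, and it was the most abundant in both groups. Cidec and Retn had 0 counts in every Dlx5CE-E12.5 library and 66 and 23, and 7 and 8, in the Fgfr3CE-E12.5 libraries. Plin1, which coats lipid droplets, had 5, 0 and 0 counts in Dlx5CE-E12.5 libraries and 304 and 134 in Fgfr3CE-E12.5 libraries. The adipocyte markers summed to 1875, 2094 and 2292 against 974 and 513 CPM, mostly Adipoq, which marrow stromal cells also express. Of 8 endothelial markers, 2 were tested and 1, Eng, was called higher in Dlx5CE-E12.5 cells, beside the same 13.1%. The sums of the 8 were 248, 193 and 200.2 against 116 and 100.1 CPM, mostly Eng.

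**Figure D4:**
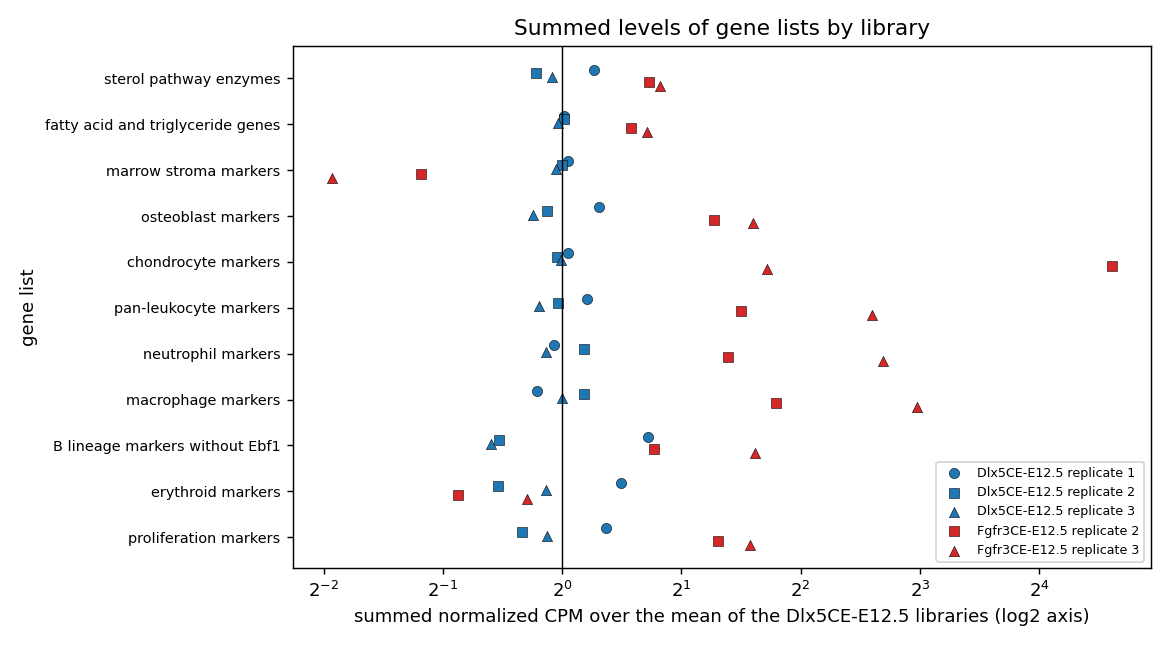
Summed normalized CPM of gene lists in each library, divided by the mean of the Dlx5CE-E12.5 libraries (log2 axis), with Dlx5CE-E12.5 libraries in blue and Fgfr3CE-E12.5 libraries in red. For the sterol enzymes both red points lie above all blue points and close together, while for the leukocyte lists they lie farther apart, replicate 3 the higher, and for the marrow stroma markers they lie below.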

How the data were processed

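Counts of reads per gene, not normalized, were deposited by the authors for 5 bulk RNA-seq libraries, which are grouped here by their labels. The submitters' processing notes name TopHat2 2.0.13, Bowtie2 2.2.1 and mm10, and also HTSeq, Cufflinks, Cuffdiff, DESeq2 and FastQC without their roles. The strand setting and the treatment of shared reads are not given in the sources used here. Of 30046 features, 29965 were found in GENCODE M21 (GRCm38), 76 were not, and 5 were reporter sequences. Of 233 gene symbols listed, 232 were matched, and 32 of the 41 members had a promoter window.

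Protein-coding genes and reporter sequences were tested where 2 or more libraries reached 10 CPM, by edgeR 4.0.16 in R 4.3.3 (TMM factors, quasi-likelihood test). A gene could pass this filter through either group alone, and counts of calls include such genes. CPM is the count divided by the library total times the TMM factor. The edgeR exact test of the study was an alternative, as were DESeq2 1.42.0 (size factors or Wald test), library size alone, other filters, all features, the replicate number as a block, GC content or transcript length trends removed, no fold change threshold, and each library left out. Leaving out members with shared windows was added after seeing the data. In counts simulated for this comparison over 10088 genes, 200 of 200 changed genes and 0 unchanged genes were called. How often genes near the fold change threshold, or genes with a wide spread between replicates, are called was not tested. Standard errors are the log2 fold change over the square root of F. Replicates differ beyond sampling noise, which the detection floor does not cover. All 41 members are named, and so are, from each list of other pathway genes, up to 3 called genes per direction by size of change, except some that are not reported here. Members and lists were chosen with earlier results of these data known, so counts over them are descriptions and no list was tested.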

Additional observations from a re-analysis of the deposited data

How the results depend on the processing

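For single members, 600 alternatives were compared with the values reported: 529 kept direction and side of the threshold, 28 fell short of the threshold, 15 passed it and 28 changed sign. All that changed sign belonged to genes not called. With no fold change threshold, 4880 genes were called, with 10 fatty acid and triglyceride members among them. The sterol members called numbered 5 to 10 with each library left out, and all genes called 2535 to 3294, both lowest without Fgfr3CE-E12.5 replicate 3 and highest without replicate 2, where a lone Fgfr3CE-E12.5 library is assumed to vary like the others, and 5 with shared-window members left out. The sterol median was 0.88 with library size alone, 0.41 with the GC trend removed and 0.55 to 0.86 with each library left out. The fatty acid and triglyceride median was 0.79 with library size alone, 0.64 with the filter at 1 CPM, 0.65 with no filter, 0.30 and 0.44 with the GC or length trend removed, 0.67 with shared-window members left out, and 0.40 to 0.64 with each library left out. Log2 fold changes that changed sign were, with library size alone, Nsdhl 0.0307, Elovl5 0.21 and Gpam 0.10; with all features, Elovl5 0.0324; with the GC trend removed, Mvk -0.0739, Elovl5 0.0238, Fads2 -0.13 and Lipe -0.0313; and with the length trend removed, Mvk -0.0494, Ebp -0.0277, Elovl1 -0.0118, Fads2 -0.26, Gpam 0.10 and Lipe -0.0562. With the replicate number as a block, they were Nsdhl 0.0168, Elovl5 0.0773, Fads2 -0.12, Gpam 0.21 and Lipe -0.00377, while 3060 genes, 7 sterol and 5 fatty acid and triglyceride members were called, with medians of 0.73 and 0.62. The calls of Mvd (0.99), Stard4 (-0.83) and Mgll (0.97) were lost and Lss (1.15) was called with that block. Only Dlx5CE-E12.5 cells have a replicate 1, so with the block that library adds nothing to the difference between groups. The block is thus close to leaving that library out and is not a separate check. Libraries of the same number were not treated as paired in the values reported. The correlation across genes was 0.12 for replicates 2 and -0.05 for replicates 3, which cannot decide whether they were paired. With any Dlx5CE-E12.5 library, the 2 Fgfr3CE-E12.5 libraries have values of equal size and opposite sign (0.12 and -0.12 with replicate 2). Genes are also not independent replicates. With each library left out, the ranges were -0.40 to 1.18 for Insig1, -0.29 to 0.0176 for Nsdhl, -0.0493 to 0.0776 for Elovl5, -0.16 to 0.28 for Fads2, -0.27 to 0.21 for Gpam, -0.17 to 1.21 for Dgat2 and -0.0201 to 0.59 for Lipe. The cause was not tested. Acacb was under a filter set on CPM, at 0.559 to 2.33 CPM.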
